A study of Arabidopsis thaliana with 7 samples.

Results

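The libraries of hot3-3 and hot3-2, T-DNA insertion alleles of the same Arabidopsis thaliana gene, were compared directly with each other across all genes, so that a difference between the alleles rests on a test of that difference and not on separate comparisons with wild type. The members were the 5 of 7 samples labelled with a mutant genotype, 2 of hot3-3 and 3 of hot3-2, and the 2 WT samples were used only to say which allele departed from wild type. All were whole seedlings aged 18 days, grown in long days, in the Columbia (Col-0) background, and the measurement was the number of sequenced polyadenylated RNA fragments per gene. hot3-3 comes from the SAIL collection and hot3-2 from the SALK collection, each is a single insertion line, and a complemented line was not analysed here. Nothing in the labels says that replicates came from separate sowings, so P values measure the spread between these samples, which may be technical.

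HOT3 (AT1G76810) encodes eIF5B1, the initiation factor that helps the large ribosomal subunit join the small one at the start codon before translation elongation begins. Alleles of one gene that carry insertions at different places can leave different amounts or lengths of transcript, and plants that carry them can differ in strength of phenotype. For these alleles the study reported that the developmental defects were similar. The study asked how loss of this factor affects the maturation of ribosomal RNA, the small RNAs made from it and translation initiation. It sequenced seedling RNA of both alleles.

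Total counts per library were 20059680 and 34696683 in hot3-3, 14090881 to 24155594 in hot3-2, and 16015064 and 20628779 in WT. The first principal component of log2 normalised counts held 66.3% of the variance and set both alleles apart from WT. The second held 16.5% and set the alleles apart from each other, with hot3-3 at 32.7 and 37.7, hot3-2 between -31.5 and -21.8, and WT at 3.82 and 5.14. Nuclear photosynthesis genes, the green tissue markers, had a summed normalised count of 54066 and 55693 CPM (counts per 1000000 of the scaled library) in hot3-3 and 60569 to 61207 CPM in hot3-2. Root markers summed to 2336 and 2456 CPM in hot3-3 and to 2089 to 2558 CPM in hot3-2, which overlap. Floral markers summed to 6.35 and 6.91 CPM in hot3-3 and to 8.36 to 9.03 CPM in hot3-2, and the floral regulators AP1, AG and CRC were at or near 0. Of 6 floral markers tested only PI passed the threshold used here for a difference between the alleles (adjusted P below 0.01 and a log2 difference of at least 1 in size), at 0.818 and 0.971 CPM in hot3-3 and 2.19 to 2.97 CPM in hot3-2, and it was lost when any mutant library was left out (edgeR adjusted P of 0.0245 to 0.0496). In bulk seedlings, fewer cells of a type and less RNA per cell cannot be told apart.

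HOT3 itself differed between the alleles. Its counts were 4059 and 9494 in hot3-3, against 1807, 1363 and 1772 in hot3-2, on chromosome 1 from 28830902 to 28836748 (minus strand, TAIR10.1). Normalised, these were 195 and 271 CPM in hot3-3, 77.7, 97.4 and 92.5 CPM in hot3-2, and 171 and 169 CPM in WT. Every hot3-3 library lay above every WT library, and every hot3-2 library below. The log2 difference between hot3-3 and hot3-2 was 1.39 ± 0.14 (SE), a 2.62-fold higher level in hot3-3 (edgeR adjusted P = 0.00107). Without hot3-2 replicate 3 the difference was 1.42 and its adjusted P of 0.0117 in the same edgeR test missed 0.01. Against WT the log2 difference was 0.46 ± 0.15 (SE) in hot3-3 and -0.93 ± 0.14 (SE) in hot3-2, neither past the fold limit. The count covers the whole gene, so it does not show which part of the transcript was read, and it gives no check of the hot3-3 label. The study itself reported, from its RNA sequencing, that reads were missing close to the insertion in each allele. Counts per gene cannot show this.

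The other members of the family, annotated in RefSeq as eIF-2 family proteins, were examined because they could be read in place of HOT3. AT1G21160, the most abundant of them, had 57.6 and 51.4 CPM in hot3-3 and 42.7, 54.4 and 47.2 CPM in hot3-2, which overlap (log2 difference 0.18, edgeR adjusted P = 0.345). Every library of both alleles lay above every WT library at AT1G21160. Its log2 difference against WT was 1.01 in hot3-3, past the threshold (edgeR adjusted P = 0.000179). In hot3-2 it was 0.83, under the fold limit (edgeR adjusted P = 0.000432). AT1G76720 had 10.5 and 10.1 CPM in hot3-3 and 4.73, 9.36 and 6.52 CPM in hot3-2, a difference of 0.62 that did not pass (edgeR adjusted P = 0.12). AT1G76820, the immediate neighbour of HOT3, had 8.52 and 7.39 CPM in hot3-3 and 6.58 to 10.2 CPM in hot3-2. Neither AT1G76720 nor AT1G76820 passed the threshold against WT in either allele. AT2G27700 had no count in any library. HOT3 was thus the only member of the 5 past the threshold between the alleles. Reads that fit several of these copies were not counted, so their levels are uncertain.

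Of 20795 genes tested, 251 (1.21%) passed the threshold, which was an adjusted P below 0.01 by the quasi-likelihood test of edgeR and a log2 difference of at least 1 in size. Of these, 178 (0.856%) were higher in hot3-3 and 73 (0.351%) were lower. Among the 251, 48 overlap a gene on the other strand, so not all calls need be separate. The share of all tested genes with such an overlap was not computed. Most differences were of modest size: 177 were under 4-fold, 34 were at least 8-fold, and the median size was 1.6 on the log2 scale. The libraries of the alleles did not overlap at any of the 251 genes, but they did not overlap at 47.7% of all tested genes either. The unadjusted P was under 0.05 at 25.7% of all tested genes, the share against which the counts of list members at that limit are to be read. Counts of list members past the threshold are to be read against the 1.21%. The median log2 difference of all tested genes was -0.0026, and 49.5% of them were positive. The count changed when 1 library was left out, which also leaves fewer libraries from which to estimate the spread. It was 71, 140 and 46 without hot3-2 replicate 1, 2 or 3, 343 and 94 without hot3-3 replicate 1 or 2, and 371 and 365 without WT replicate 1 or 2. In all 7 of these fits, 41 genes passed, 29 of them higher and 12 lower in hot3-3.

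WT was then used to say which allele had moved. Of the 178 genes higher in hot3-3, 73 were above WT in hot3-3 alone, 34 were below WT in hot3-2 alone, 27 were above WT in both alleles and 3 below WT in both. Another 37 were past the threshold against WT in neither allele, although the alleles differed from each other. Of the 73 genes lower in hot3-3, 31 were above WT in hot3-2 alone, 19 were below WT in hot3-3 alone, 3 were above and 3 below WT in both, and 15 were past the threshold in neither. The remaining 6 genes were past the threshold in opposite directions in the alleles. For reference, 14.5% of tested genes were past the threshold in hot3-3 against WT and 11.7% in hot3-2 against WT, with the same WT libraries in both comparisons.

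**Figure D1:**
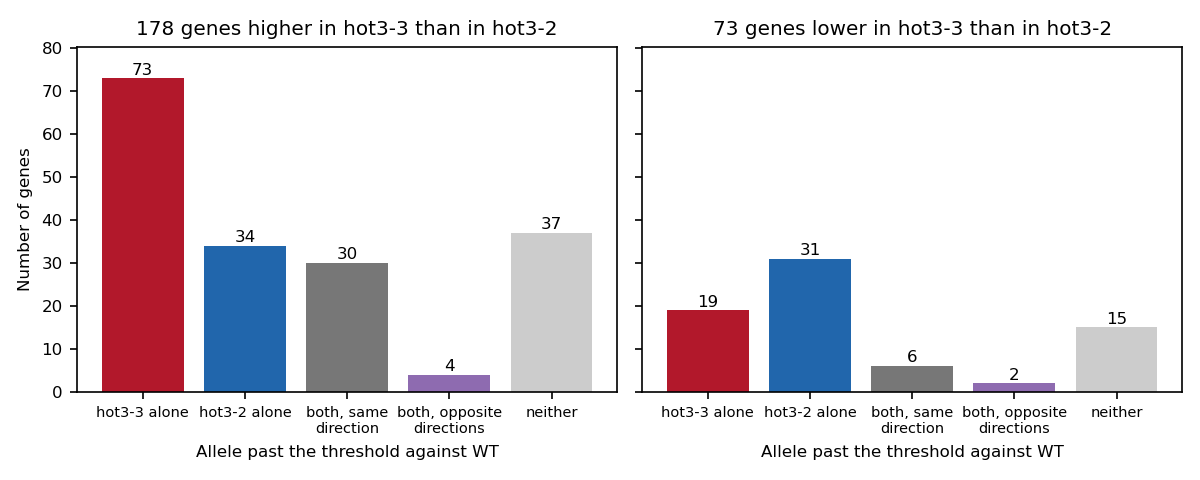
Number of genes past the threshold between the alleles (vertical axis), by the allele that also passed it against WT (horizontal axis), for genes higher in hot3-3 (left) and lower in hot3-3 (right). The tallest bar on the left is hot3-3 alone with 73 genes, and on the right hot3-2 alone with 31 genes.

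The largest difference among genes higher in hot3-3 was at CYP71B29 (AT1G13100), a cytochrome P450 gene on chromosome 1 from 4463859 to 4465725. It had 10.5 and 10.4 CPM in hot3-3, against 0.215, 0.357 and 0.417 CPM in hot3-2, and 9.90 and 8.91 CPM in WT. The hot3-3 libraries were thus beside WT, and the departure was in hot3-2. The log2 difference was 5.0 ± 0.21 (SE, edgeR adjusted P = 9.83e-06). The next gene on the chromosome, CYP71B7 (AT1G13110), differed the other way. It had 151 and 149 CPM in hot3-3, against 347, 298 and 314 CPM in hot3-2, and 145 and 126 CPM in WT, a log2 difference of -1.09 (edgeR adjusted P = 0.000597). Both calls held when any library was left out. CYP71B28, on the other side of CYP71B29, had 48.8 and 49.1 CPM in hot3-3 and 40.8 to 43.5 CPM in hot3-2, and did not pass. These are tandem copies of one gene family, so pairs that fit more than one copy were not counted.

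AT5G24240, annotated as a phosphatidylinositol kinase gamma-like gene, was above WT in both alleles. It had 39.5 and 37.0 CPM in hot3-3, 3.48, 2.21 and 2.40 CPM in hot3-2 and 0.615 and 0.530 CPM in WT, with no overlap between genotypes. The log2 difference was 3.79 ± 0.15 (SE) between the alleles (edgeR adjusted P = 9.83e-06). It overlaps AT5G24230 on the other strand by 49 bases, where hot3-3 had 2.7 and 2.31 CPM and hot3-2 had 4.36 to 5.17 CPM. AT1G50750, an aminotransferase-like mobile domain gene, had 5.73 and 10.7 CPM in hot3-3, 0.774, 0.714 and 1.04 CPM in hot3-2, and 0.861 and 0.819 CPM in WT, a departure in hot3-3 only by the same threshold. AT4G14060, a polyketide cyclase and lipid transport family gene, had 9.87 and 11.8 CPM in hot3-3, against 1.46, 1.43 and 0.939 CPM in hot3-2. NATA1, an acetyltransferase of ornithine, had 4.24 and 7.94 CPM in hot3-3 and 0.473, 0.714 and 0.678 CPM in hot3-2. Its log2 difference of 3.34 lost its call without hot3-2 replicate 1 or 3 (adjusted P of 0.0166 and 0.0181 in edgeR). CYP82G1, which makes a volatile homoterpene, had 19.6 and 19.9 CPM in hot3-3, 4.78, 4.79 and 4.91 CPM in hot3-2, and 0.246 and 0.434 CPM in WT, a log2 difference of 2.03 between alleles that were both above WT.

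**Figure D2:**
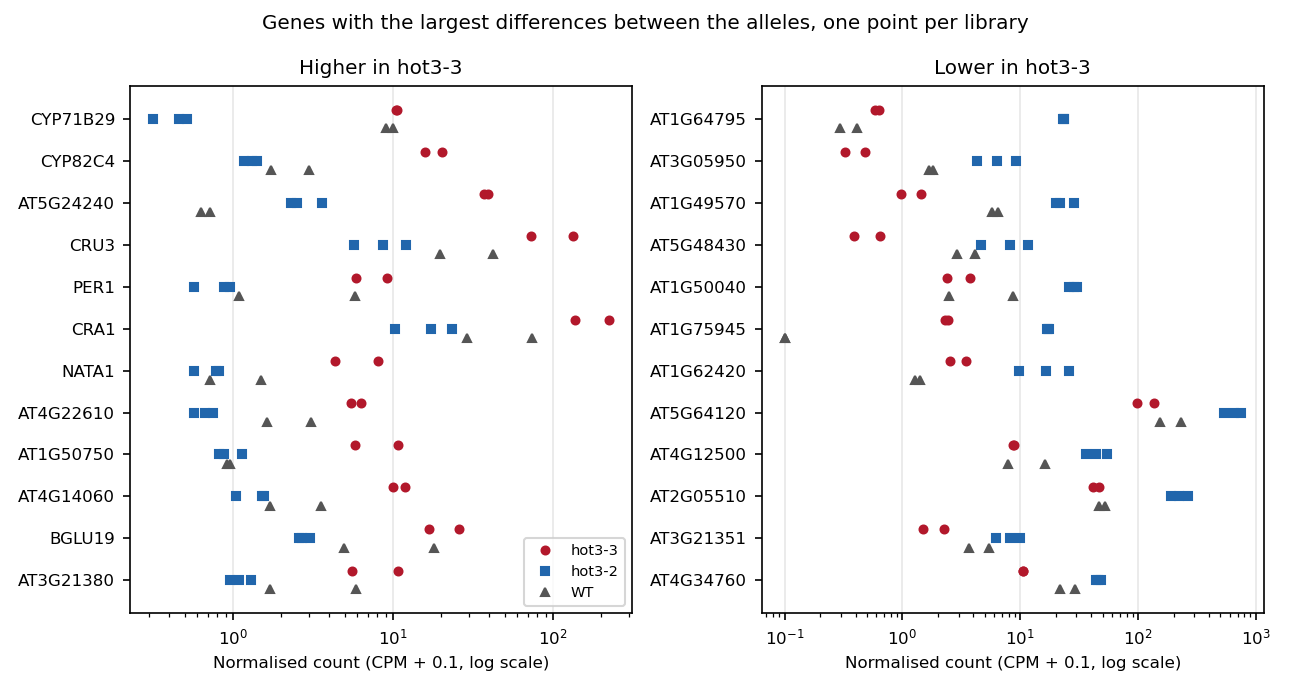
Normalised count of the 12 genes with the largest difference in each direction among those with a mean of at least 5 CPM in the higher allele (CPM plus 0.1, log axis), 1 point per library, for hot3-3 (circles), hot3-2 (squares) and WT (triangles). CYP71B29 lies near 10 CPM in hot3-3 and WT and below 0.5 CPM in hot3-2, and AT1G64795 lies near 23 CPM in hot3-2 and below 0.6 CPM in the other genotypes.

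Of the flavonoid and anthocyanin genes, 7 were higher in hot3-3. Anthocyanins are red flavonoid pigments whose late synthesis genes are switched on by a complex of MYB, bHLH and WD40 proteins. These were 7 of 18 tested, with 0 lower, against 1.21% of all tested genes, and 17 of 18 were positive, with a median log2 difference of 1.03. Promoter windows are shown for this group and for a sulphur gene described further on, because G-box elements (CACGTG, its own reverse complement, here in capitals) are bound by bHLH proteins. Among the 7 genes, 2 had this motif within the 250 bases before the annotated start, DFR and UF3GT, compared with 7.42% of 20694 tested protein-coding genes. The windows are from RefSeq, TAIR10.1, at chr5:17166033-17166282 (minus strand) and chr5:21938397-21938646 (minus strand), each written toward its gene.
DFR: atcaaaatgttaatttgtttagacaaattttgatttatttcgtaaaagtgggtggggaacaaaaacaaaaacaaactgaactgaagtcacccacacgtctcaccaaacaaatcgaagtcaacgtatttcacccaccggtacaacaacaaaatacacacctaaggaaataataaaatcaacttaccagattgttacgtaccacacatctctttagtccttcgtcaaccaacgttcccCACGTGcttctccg
UF3GT: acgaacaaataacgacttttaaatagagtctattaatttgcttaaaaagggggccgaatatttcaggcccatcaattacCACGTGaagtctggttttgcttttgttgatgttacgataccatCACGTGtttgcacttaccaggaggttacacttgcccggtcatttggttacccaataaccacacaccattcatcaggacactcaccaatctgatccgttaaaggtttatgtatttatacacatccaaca
The capitals start 14 bases before the start in DFR and 171 and 128 bases before it in UF3GT. A match in the letters is not evidence of binding.

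AT1G56650, which encodes the MYB regulator PAP1, had 9.53 and 10.2 CPM in hot3-3, 2.45, 3.64 and 2.87 CPM in hot3-2, and 0.861 and 0.434 CPM in WT. Its bHLH partner TT8 had 5.78 and 6.85 CPM in hot3-3, 1.76, 2.86 and 1.98 CPM in hot3-2, and 0.246 and 0.241 CPM in WT. Both regulators were in the order hot3-3, hot3-2, WT without overlap, with log2 differences between the alleles of 1.75 and 1.56. DFR, the reductase that commits the pathway to anthocyanin, had 15.6 and 22.6 CPM in hot3-3, 6.37, 5.57 and 5.43 CPM in hot3-2, and 1.23 and 0.723 CPM in WT. Its log2 difference was 1.72 ± 0.18 (SE, edgeR adjusted P = 0.00138). UF3GT, annotated as a flavonoid glucosyltransferase, had 9.82 and 14.8 CPM in hot3-3 and 2.97, 2.93 and 3.86 CPM in hot3-2. GSTF12, a glutathione transferase needed to move anthocyanin into the vacuole, had 21.6 and 31.7 CPM in hot3-3 and 8.6, 10.1 and 8.77 CPM in hot3-2. TT7, a flavonoid hydroxylase, and AT4G14090, annotated as a UDP-glycosyltransferase, also passed, with log2 differences of 1.28 and 1.05. GSTF12 and AT4G14090 each overlap a gene on the other strand. Of earlier enzymes that missed the fold or the P limit, TT4 had 130 and 153 CPM in hot3-3 and 59.2 to 81.2 CPM in hot3-2, and F3H 18.1 and 20.3 CPM in hot3-3 and 9.0 to 10.1 CPM in hot3-2. The repressor MYBL2 had 110 and 108 CPM in hot3-3 and 92.2 to 98.3 CPM in hot3-2. All 7 calls were lost when a single hot3-2 library was left out, with log2 differences that stayed positive. Without hot3-2 replicate 3 the adjusted P in edgeR was 0.0163 for DFR, 0.0206 for AT1G56650, 0.0152 for UF3GT, 0.032 for TT8, 0.0503 for GSTF12, 0.0504 for TT7 and 0.0416 for AT4G14090, and without hot3-2 replicate 1 it was between 0.0104 for DFR and 0.0469 for GSTF12. Without hot3-2 replicate 2, UF3GT, GSTF12, TT7 and AT4G14090 were lost (0.0119 to 0.0303 in edgeR), and without hot3-3 replicate 2 the 6 calls other than DFR were lost (0.0111 to 0.0609).

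**Figure D3:**
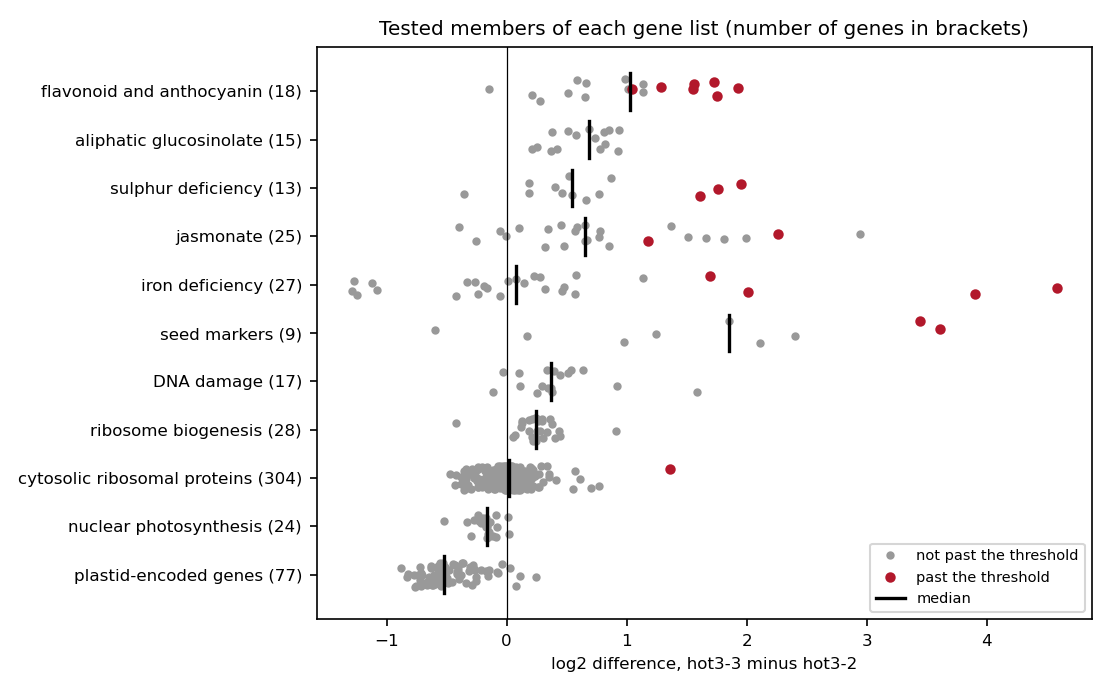
Log2 difference between hot3-3 and hot3-2 (horizontal axis) of each tested member of 11 gene lists (rows, with the number of tested members), red where past the threshold, with the median as a bar. The flavonoid and anthocyanin median is 1.03, the cytosolic ribosomal protein median is 0.021 and the plastid-encoded median is -0.52.

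Of 27 tested iron deficiency genes, 4 were higher in hot3-3 and 0 lower, or 14.8%, against 1.21% of all tested genes. Of the 27, 15 were positive, and the median log2 difference was 0.074. Arabidopsis takes up iron by a reductase, a transporter and secreted coumarins, under the bHLH factor FIT (FRU in RefSeq) together with partner bHLH factors that are themselves raised when iron is short. IRT1, the root iron transporter, had 90.1 and 73.7 CPM in hot3-3, 31.1, 20.9 and 23.4 CPM in hot3-2, and 9.41 and 10.6 CPM in WT. FRO2, the ferric reductase, had 31.2 and 26.2 CPM in hot3-3, 8.13, 5.43 and 7.46 CPM in hot3-2, and 4.61 and 3.56 CPM in WT. CYP82C4, which makes an iron-mobilising coumarin, had 20.1 and 15.8 CPM in hot3-3, against 1.08, 1.21 and 1.3 CPM in hot3-2, and 2.89 and 1.64 CPM in WT. For these genes hot3-3 was above both other genotypes in every library. Their log2 differences between the alleles were 1.69 ± 0.15, 2.01 ± 0.16 and 3.90 ± 0.22 (SE, edgeR adjusted P = 0.000686, 0.000429 and 7.86e-05), and each held whichever library was left out. AT3G12900, an oxygenase family gene, passed as well at 1.68 and 1.2 CPM in hot3-3 and at most 0.104 CPM in hot3-2, but its adjusted P in edgeR reached 0.0218 without hot3-2 replicate 3 and was above 0.01 without hot3-2 replicate 1 or 2 or hot3-3 replicate 2.

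None of the partner regulators passed the threshold in edgeR. bHLH38 had 18.0 and 20.1 CPM in hot3-3, against 67.1, 26.3 and 41.5 CPM in hot3-2, and 6.46 and 4.24 CPM in WT. bHLH39, BHLH100 and BHLH101 had the same order, with hot3-3 below every hot3-2 library and above every WT library. Their hot3-3 values were 18.0 and 21.2, 15.3 and 18.8, and 19.0 and 23.2 CPM, against hot3-2 values of 25.5 to 68.3, 23.9 to 57.6 and 35.2 to 56.2 CPM. The log2 differences of the 4 genes were -1.25, -1.27, -1.29 and -1.08 (edgeR adjusted P = 0.0437, 0.0574, 0.038 and 0.0125). FRU had 4.04 and 3.48 CPM in hot3-3 and 3.40, 2.79 and 2.97 CPM in hot3-2, a difference of 0.28. DESeq2 put 5 members of the list higher and 1 lower, and the lower one was BHLH101 (log2 difference -1.07, DESeq2 adjusted P = 1.34e-06). No test compared the uptake genes with the regulators. The ferritin gene FER4, for iron storage, had 16.7 and 18.8 CPM in hot3-3 and 26.1 to 29.3 CPM in hot3-2, and its difference of -0.65 was under the fold limit.

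**Figure D4:**
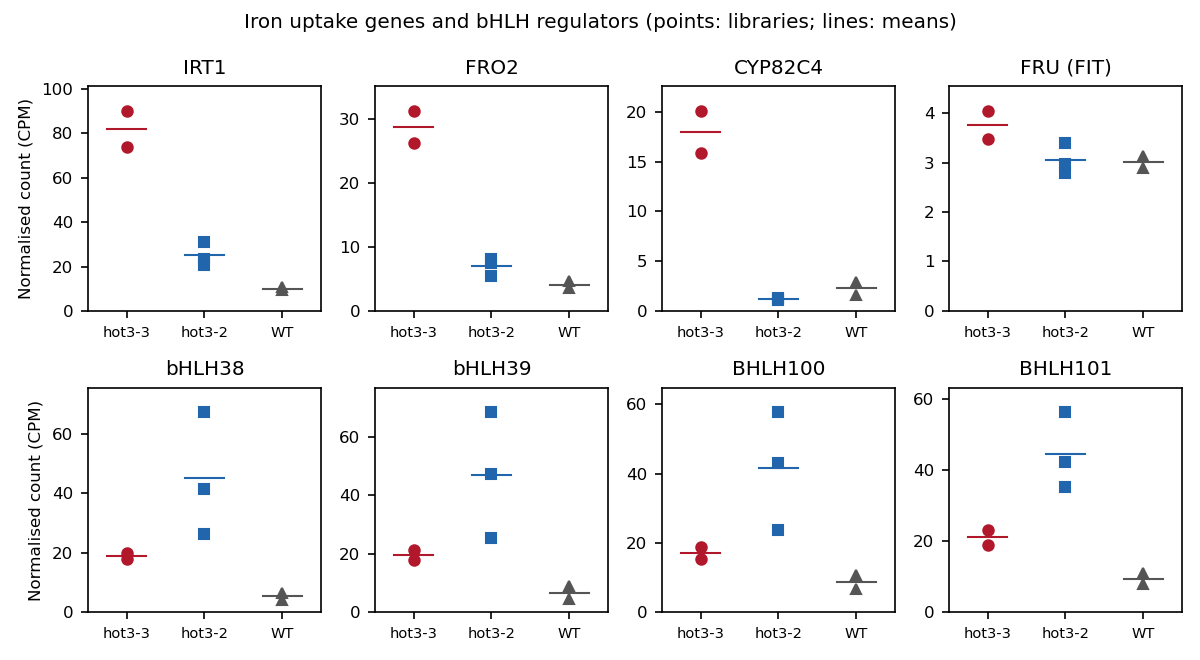
Normalised count (CPM, linear axes from 0) of iron uptake genes and of bHLH regulators in hot3-3, hot3-2 and WT, with 1 point per library and the mean as a line. IRT1, FRO2 and CYP82C4 are highest in hot3-3, while bHLH38, bHLH39, BHLH100 and BHLH101 are highest in hot3-2.

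Of 13 tested sulphur deficiency genes, 3 were higher in hot3-3 and 0 lower, or 23.1%, against 1.21% of all tested genes. Of the 13, 12 were positive, with a median of 0.55. ATSDI1 (AT5G48850), which represses aliphatic glucosinolate synthesis when sulphur is short, had 6.93 and 8.51 CPM in hot3-3, 2.02, 2.36 and 2.5 CPM in hot3-2, and 2.40 and 2.5 CPM in WT. LSU1 had 15.5 and 17.6 CPM in hot3-3, 3.83, 4.57 and 4.54 CPM in hot3-2, and 4.00 and 2.12 CPM in WT. Its neighbour LSU3 had 9.48 and 10.3 CPM in hot3-3, 2.97, 3.21 and 3.55 CPM in hot3-2, and 5.11 and 2.55 CPM in WT. All 3 departed from WT in hot3-3 alone, with log2 differences between the alleles of 1.76, 1.95 and 1.61. The call of ATSDI1 held whichever library was left out, while without hot3-2 replicate 3 the adjusted P in edgeR was 0.013 for LSU1 and 0.031 for LSU3, and without hot3-2 replicate 1 it was 0.0119 and 0.0354. LSU3 also missed 0.01 without hot3-2 replicate 2 and without hot3-3 replicate 2 (0.0209 and 0.0221 in edgeR). The 250 bases before LSU3 hold a G-box 21 bases before the start, at chr3:18373148-18373397 (minus strand, TAIR10.1), and those before LSU1, ATSDI1 and the 4 called iron genes hold none.
LSU3: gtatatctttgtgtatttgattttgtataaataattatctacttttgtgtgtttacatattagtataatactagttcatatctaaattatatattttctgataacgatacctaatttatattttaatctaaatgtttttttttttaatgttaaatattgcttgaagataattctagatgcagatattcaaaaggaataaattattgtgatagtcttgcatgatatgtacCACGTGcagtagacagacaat
The aliphatic glucosinolate list, for sulphur-rich defence compounds made from methionine, had 0 members past the threshold in edgeR of 15 tested, yet all 15 were positive, all 15 had non-overlapping libraries (47.7% of all tested genes) and all 15 had an unadjusted P under 0.05 (25.7% of all tested genes). The median log2 difference was 0.69. IMS2, a chain elongation enzyme, was the member with the smallest P, with 36.2 and 32.9 CPM in hot3-3, 17.8, 18.8 and 18.0 CPM in hot3-2, and 22.6 and 18.3 CPM in WT, a difference of 0.92. MYB29, a regulator of the pathway, had 32.7 and 26.9 CPM in hot3-3 and 16.2 to 18.0 CPM in hot3-2.

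Of 25 tested jasmonate genes, 2 were higher in hot3-3 and 0 lower, or 8%, against 1.21% of all tested genes. Of the 25, 21 were positive, with a median of 0.65. The list median against WT was -0.39 in hot3-3 and -1.04 in hot3-2. VSP1, a vegetative storage protein induced by jasmonate, had 8.76 and 11.3 CPM in hot3-3, 2.93, 1.36 and 1.77 CPM in hot3-2, and 33.1 and 40.4 CPM in WT. Its neighbour VSP2 had 36.9 and 41.8 CPM in hot3-3, 17.2, 16.8 and 18.2 CPM in hot3-2, and 143 and 202 CPM in WT. Both genes were lowest in hot3-2 and highest in WT without overlap, with log2 differences between the alleles of 2.26 ± 0.24 and 1.18 ± 0.14 (SE, edgeR adjusted P = 0.00149 and 0.00225). Without hot3-2 replicate 3 these were 0.0163 and 0.0189, and VSP2 also missed 0.01 without hot3-2 replicate 1 (0.0148) or 2 (0.0119) and without hot3-3 replicate 2 (0.0115). LOX2, a jasmonate synthesis enzyme, had 393 and 421 CPM in hot3-3, 181, 265 and 232 CPM in hot3-2, and 518 and 564 CPM in WT, a difference of 0.85 under the fold limit. In the salicylic acid list 0 of 18 passed in edgeR, with 4 at an unadjusted P under 0.05 against 25.7% of all tested genes, and PR1 had 6.21 and 4.74 CPM in hot3-3 and 1.2, 2.07 and 1.77 CPM in hot3-2 (log2 difference 1.72, adjusted P of 0.0106 in edgeR).

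ERF5, WRKY40 and CZF1 were uneven between the hot3-3 libraries and were chosen after their values were seen, so they stand for no wider class. ERF5, an ethylene response factor gene, had 38.6 and 104 CPM in hot3-3, 10.3, 18.2 and 14.3 CPM in hot3-2, and 6.09 and 4.67 CPM in WT. WRKY40, which encodes a WRKY transcription factor, had 77.7 and 185 CPM in hot3-3 and 23.4, 43.9 and 34.1 CPM in hot3-2. CZF1, a zinc finger gene, had 217 and 402 CPM in hot3-3 and 64.4, 109 and 87.0 CPM in hot3-2. All 3 passed, and hot3-3 replicate 2 was the highest library for each. Without it the log2 differences were 1.45, 1.21 and 1.33, against 2.35, 1.98 and 1.84 with it, and the adjusted P values in edgeR were 0.0113, 0.0275 and 0.0113. The calls were also lost without hot3-2 replicate 1 or 3 (0.0211 to 0.0543 in edgeR), those of ERF5 and WRKY40 without hot3-2 replicate 2 (0.0199 and 0.0207), and that of WRKY40 without WT replicate 2 (0.0102). Of the 178 genes higher in hot3-3, 19 were over 1.5 times as high in hot3-3 replicate 2 as in replicate 1.

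Some genes past the threshold were neighbours. Among the 251 genes there were 20 runs of adjacent tested loci, holding 42 genes, and in 17 of the runs all genes differed in 1 direction. For reference, 1.21% of tested genes passed, and 70.9% of those were higher in hot3-3. The number of runs to be had from these shares alone was not computed. In 5 of the runs, members overlap on opposite strands and could share counted pairs. In 1 of these, AT4G12495 had counts of 1670 and 2442 in hot3-3 and 6670, 2627 and 4331 in hot3-2. AT4G12490, on the other strand, had 2396 and 3507 in hot3-3 and 9506, 3736 and 6234 in hot3-2. Whether the same pairs were counted for both was not tested. Genes of thalianol synthesis, a root triterpene pathway, formed a run of 3 on chromosome 5. THAS1, the thalianol synthase, had 63.9 and 63.8 CPM in hot3-3, 34.2, 28.6 and 31.6 CPM in hot3-2, and 18.6 and 21.9 CPM in WT. CYP708A2, the thalianol hydroxylase, had 35.9 and 37.4 CPM in hot3-3, 12.9, 11.6 and 10.6 CPM in hot3-2, and 20.2 and 24.6 CPM in WT. CYP705A5, which acts after it, had 53.9 and 51.8 CPM in hot3-3, 24.8, 19.6 and 18.0 CPM in hot3-2, and 20.2 and 25.4 CPM in WT. hot3-3 was highest at each, while hot3-2 was above WT at THAS1, below WT at CYP708A2 and overlapped WT at CYP705A5. The log2 differences between the alleles were 1.02, 1.64 and 1.34. On either side of the run, AT5G47980, an acyltransferase family gene, and AT5G48020, an oxygenase family gene, did not pass. Their differences were 1.33 and 0.20 (edgeR adjusted P = 0.0508 and 0.191). The CYP708A2 call held whichever library was left out. THAS1 fell under the fold limit at 0.96 without hot3-2 replicate 2, and without hot3-2 replicate 3 the adjusted P in edgeR was 0.0113 for THAS1 and 0.011 for CYP705A5. PAD3, the last enzyme of camalexin synthesis, had 9.10 and 8.57 CPM in hot3-3 and 4.04, 2.07 and 3.86 CPM in hot3-2, and the gene beside it, PES2, which makes phytyl esters, had 19.0 and 16.4 CPM in hot3-3 and 6.93 to 7.01 CPM in hot3-2. PAD3 was called on all libraries but missed 0.01 in edgeR when hot3-2 replicate 1 or 3 or either hot3-3 library was left out, with 0.035 as the highest adjusted P, whereas PES2 passed in each of those fits. PAD3 was the only 1 of 16 tested members of the indole glucosinolate and camalexin list past the threshold. The median of that list was 0.38. IGMT5, an indole glucosinolate methyltransferase gene described below with the neighbours of HOT3, is not in that list and also passed.

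Among seed genes, 2 storage protein genes were higher in hot3-3. The cruciferins CRA1 and CRU3 are storage proteins of the dry seed, and the list marks a tissue other than the seedling. CRA1 had 138 and 224 CPM in hot3-3, 10.2, 23.3 and 17.2 CPM in hot3-2, and 29.0 and 73.5 CPM in WT. CRU3 had 73.3 and 133 CPM in hot3-3, 5.59, 11.9 and 8.56 CPM in hot3-2, and 19.6 and 42.4 CPM in WT. Their log2 differences between the alleles were 3.45 ± 0.41 and 3.61 ± 0.38 (SE, edgeR adjusted P = 0.00225 and 0.00138). Without hot3-2 replicate 3 these P values were 0.0218 and 0.0164, and without hot3-2 replicate 1 they were 0.0145 and 0.0108. The WT libraries differ by more than 2-fold at both genes. Of the 9 tested seed markers 2 passed, or 22.2%, against 1.21% of all tested genes, and 8 were positive, with a median of 1.85. The 10 markers together summed to 234 and 411 CPM in hot3-3, 30.5, 54.8 and 44.7 CPM in hot3-2, and 57.8 and 135 CPM in WT. CRU2 and SESA4 were below 1 CPM in every library, SESA3 was higher in every hot3-2 library than in hot3-3 replicate 1, and the embryo regulator ABI3 was below 0.6 CPM everywhere. The oil body gene OLEO2 had 6.69 and 8.79 CPM in hot3-3 and 1.2, 1.93 and 1.41 CPM in hot3-2 (edgeR adjusted P = 0.0106). PER1, a peroxiredoxin of the seed, and BGLU19, a beta glucosidase, were among the 12 largest differences and showed the same split in WT, with 0.984 and 5.68 CPM and with 4.86 and 18.0 CPM in the WT libraries. PER1 had 5.78 and 9.05 CPM in hot3-3 and 0.473 to 0.857 CPM in hot3-2, and BGLU19 had 16.7 and 25.9 CPM in hot3-3 and 2.5 to 2.93 CPM in hot3-2. Both lost their call when any hot3-2 library or hot3-3 replicate 2 was left out, up to an adjusted P of 0.0567 for PER1 and 0.0415 for BGLU19 in edgeR. The part of seed tissue in these differences was not tested.

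Among genes lower in hot3-3, AT2G11405, an uncharacterised gene, had 0 counts in both hot3-3 libraries and in WT, and 1.46, 1.71 and 1.72 CPM in hot3-2. Against a floor of 3 counts over the hot3-3 libraries it was at least 30.4-fold lower in hot3-3 than in hot3-2 (edgeR adjusted P = 0.00179), and its call was lost without hot3-2 replicate 1 or 3 or hot3-3 replicate 2 (0.0126, 0.0164 and 0.0103 in edgeR). Among those with a mean of at least 5 CPM in hot3-2, the largest difference was at AT1G64795, an uncharacterised gene on chromosome 1 from 24082579 to 24082848. It had 0.530 and 0.485 CPM in hot3-3, 23.3, 23.6 and 22.8 CPM in hot3-2, and 0.308 and 0.193 CPM in WT. hot3-2 alone departed from WT. The log2 difference between the alleles was -5.51 ± 0.16 (SE, edgeR adjusted P = 9.25e-07). All of its 270 bases lie in ILA (AT1G64790) on the other strand, which had 129 and 123 CPM in hot3-3 and 121, 139 and 133 CPM in hot3-2, so the alleles overlapped at the host gene and not at the inner one. Whether the counting used strand is not stated, so reads of this pair cannot be told apart. AT1G75945, also uncharacterised, had 0 counts in WT, 2.21 and 2.34 CPM in hot3-3, and 17.5, 16.9 and 17.1 CPM in hot3-2. Against a floor of 3 counts over the WT libraries, hot3-3 was at least 28.1-fold higher and hot3-2 at least 211-fold higher. The log2 difference between the alleles was -2.90 ± 0.13 (SE, edgeR adjusted P = 5.73e-05).

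Of 58 tested class III peroxidases, which oxidise wall and phenolic compounds with peroxide, 3 were higher in hot3-3 and 4 lower. Together they were 12.1% of those tested, against 1.21% of all tested genes, with 36 positive and a median log2 difference of 0.23. AT5G64120, one of the lower genes, had 136 and 98.2 CPM in hot3-3, against 748, 534 and 647 CPM in hot3-2, and 231 and 153 CPM in WT. The log2 difference was -2.46 ± 0.22 (SE, edgeR adjusted P = 0.000686). AT5G64100, a peroxidase gene close to it, had 53.1 and 39.1 CPM in hot3-3, 201, 126 and 162 CPM in hot3-2, and 36.2 and 33.2 CPM in WT. Both were above WT in hot3-2 alone, and AT5G64100 missed the threshold without hot3-2 replicate 3 (adjusted P of 0.0132 in edgeR). The peroxidase AT1G49570 had 0.867 and 1.34 CPM in hot3-3, 28.3, 20.0 and 21.7 CPM in hot3-2, and 6.40 and 5.68 CPM in WT, with hot3-3 below and hot3-2 above WT. AT2G18150 was on the other side, with 43.5 and 39.8 CPM in hot3-3, 18.7, 18.9 and 19.5 CPM in hot3-2, and 7.75 and 9.30 CPM in WT. Apart from the peroxidases, AT2G05510, a glycine-rich protein gene and 1 of the 12 largest differences, had 41.4 and 46.5 CPM in hot3-3, 263, 188 and 222 CPM in hot3-2, and 46.6 and 52.5 CPM in WT. hot3-3 was beside WT there, and the call held whichever library was left out.

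In a cluster of lipid transfer family genes on chromosome 4, members passed the threshold in both directions. AT4G12490, which overlaps AT4G12495 on the other strand, had 115 and 100 CPM in hot3-3, 409, 267 and 325 CPM in hot3-2, and 65.3 and 43.1 CPM in WT. AT4G12500 had 8.52 and 8.76 CPM in hot3-3, 54.4, 35.9 and 44.0 CPM in hot3-2, and 16.1 and 7.71 CPM in WT. The neighbours AZI1 and EARLI1, of the same family, had 321 and 324 CPM and 513 and 559 CPM in hot3-3, against 349 to 434 CPM and 727 to 924 CPM in hot3-2, and neither passed. At the far end of the cluster AIR1 was higher in hot3-3, with 7.94 and 6.79 CPM in hot3-3, 3.14, 1.93 and 2.61 CPM in hot3-2, and 4.74 and 6.21 CPM in WT, a log2 difference of 1.49 (edgeR adjusted P = 0.0042). AT4G12555, which overlaps AIR1 by 642 bases on the other strand, had a difference of 1.47 and passed as well. Its counts ran parallel to those of AIR1, with 146 and 212 against 165 and 238 in hot3-3. In hot3-2 they were 64, 23 and 48 against 73, 27 and 50, so these may not be separate calls. Both calls were lost when any mutant library was left out (0.0111 to 0.0316 in edgeR). The differences of AT4G12490 and AT4G12500 were -1.63 and -2.38, and without hot3-2 replicate 3 their adjusted P values in edgeR were 0.021 and 0.0163. They were 0.0147 and 0.0134 without hot3-2 replicate 1, and 0.0163 and 0.0109 without hot3-3 replicate 2. AT4G34760, a SAUR-like auxin-responsive gene, had 10.5 and 10.4 CPM in hot3-3, 48.3, 45.3 and 43.7 CPM in hot3-2, and 21.8 and 29.3 CPM in WT, a difference of -2.13. AT5G48430, an aspartyl protease gene, had 0.289 and 0.542 CPM in hot3-3 and 11.6, 4.50 and 8.04 CPM in hot3-2, a difference of -4.19, and missed 0.01 without hot3-2 replicate 3 (0.0136) or hot3-3 replicate 2 (0.0103) in edgeR. AT1G50040, annotated as a putative formin-like gene, had 2.31 and 3.65 CPM in hot3-3 and 26.0, 29.9 and 28.7 CPM in hot3-2, but its call was lost without any 1 of the hot3-2 libraries (adjusted P of 0.0112 to 0.0192 in edgeR).

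The 6 genes past the threshold in opposite directions against WT were AT3G05950 and AT1G49570, lower than WT in hot3-3 and higher in hot3-2, and BGLU7, AT4G22610, CRA1 and CRU3, higher than WT in hot3-3 and lower in hot3-2. AT3G05950, a cupin family gene, had 0.385 and 0.228 CPM in hot3-3, 9.12, 4.22 and 6.21 CPM in hot3-2, and 1.72 and 1.59 CPM in WT. Its log2 difference was -2.49 in hot3-3 and 2.00 in hot3-2 against WT, and -4.49 ± 0.42 (SE) between the alleles (edgeR adjusted P = 0.000788). BGLU7, a beta glucosidase, had 7.70 and 6.71 CPM in hot3-3, 1.03, 1.5 and 1.3 CPM in hot3-2, and 3.38 and 3.23 CPM in WT. AT4G22610, a lipid transfer family gene, had 6.21 and 5.37 CPM in hot3-3, 0.645, 0.572 and 0.470 CPM in hot3-2, and 1.54 and 2.99 CPM in WT. WT lay between the alleles, without overlap, at each of these genes.

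Flowering regulators gave a pair in opposite directions. FLC, which represses flowering, had 22.4 and 21.2 CPM in hot3-3, 11.4, 10.9 and 9.91 CPM in hot3-2, and 5.41 and 5.83 CPM in WT. AGL20 (SOC1), which promotes flowering and is repressed by FLC, had 20.1 and 18.1 CPM in hot3-3, 37.7, 41.3 and 37.7 CPM in hot3-2, and 72.0 and 80.9 CPM in WT. hot3-3 was furthest from WT at both, and the log2 differences between the alleles were 1.02 ± 0.10 and -1.03 ± 0.09 (SE, edgeR adjusted P = 0.00101 and 0.000686). Both lie close to the fold limit. FLC fell to 0.96 without hot3-2 replicate 3 (adjusted P of 0.0114 in edgeR) and 0.98 without hot3-3 replicate 1, and AGL20 to -0.99 without hot3-2 replicate 2 and -0.95 without hot3-3 replicate 2. FLC overlaps a gene on the other strand. These were the only 2 of 23 tested flowering genes past the threshold, or 8.70%, against 1.21% of all tested genes. PHT1;1, a phosphate transporter, was the only one of 13 tested phosphate genes, with 33.8 and 23.7 CPM in hot3-3 and 70.9, 49.2 and 57.6 CPM in hot3-2. It lost its call without any hot3-2 library or hot3-3 replicate 2 (adjusted P of 0.0142 to 0.0483 in edgeR).

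In the lists nearest to the function of HOT3, 2 genes passed, HOT3 and 1 ribosomal protein gene. Of 304 tested genes for cytosolic ribosomal proteins, 1 was higher in hot3-3 and 0 lower, with a median of 0.021 and 177 positive, whereas the median against WT was 1.2 in hot3-3 and 1.13 in hot3-2. The 1 gene was AT5G40040, an acidic ribosomal protein family gene, with 3.13 and 3.43 CPM in hot3-3 and 1.38, 1.29 and 1.15 CPM in hot3-2. Its call was lost when any mutant library was left out (adjusted P of 0.0149 to 0.0485 in edgeR). Ribosome biogenesis factors had 0 of 28 past the threshold in edgeR, with 22 at an unadjusted P under 0.05 (25.7% of all tested genes), 27 positive and a median of 0.25. NUC-L2, a nucleolin that binds ribosomal DNA chromatin, had 62.4 and 60.0 CPM in hot3-3, 31.3, 36.1 and 30.5 CPM in hot3-2, and 1.97 and 1.45 CPM in WT, a difference of 0.91 between the alleles under the fold limit. Of 17 DNA damage genes 0 passed in edgeR, with 10 at an unadjusted P under 0.05 against the same 25.7%, and a median of 0.37, and NAC044, a factor of cell cycle arrest after DNA damage, had 223 and 208 CPM in hot3-3, 147, 154 and 146 CPM in hot3-2, and 3.26 and 3.18 CPM in WT. Of 15 mitochondrial stress genes 0 passed in edgeR, with 6 at an unadjusted P under 0.05 and a median of 0.40. Heat response (16 tested), RNA interference (19), circadian clock (18) and cell division (11) genes had 0 past the threshold and medians of 0.047, 0.098, -0.054 and 0.15, with 6, 5, 7 and 5 at an unadjusted P under 0.05 in edgeR, against 25.7% of all tested genes.

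Most genes of the chloroplast had negative differences. Of 77 tested plastid-encoded genes, 0 passed in edgeR, 40 had an unadjusted P under 0.05 (25.7% of all tested genes) and 73 were negative, with a median of -0.52. The plastid share of all counts was 0.285% and 0.308% in hot3-3, 0.401% to 0.428% in hot3-2, and 0.466% and 0.473% in WT, in that order without overlap. Because libraries were made from polyadenylated RNA, which plastid transcripts mostly are not, this share also depends on how the RNA was selected, and that was not tested. Nuclear photosynthesis genes had 22 of 24 negative, a median of -0.17 and 0 past the threshold, with 8 at an unadjusted P under 0.05 in edgeR. LHCA3, an antenna protein of photosystem I, had 1661 and 1678 CPM in hot3-3 and 1973 to 2055 CPM in hot3-2. Among gene families, 9 cytochrome P450 genes were higher and 1 lower of 173 tested, 6 UGT glycosyltransferase genes were higher and 0 lower of 114, and 1 immune receptor gene was higher and 1 lower of 130. These were 5.78%, 5.26% and 1.54% of the tested genes of each family, against 1.21% of all tested genes. The medians of the families were 0.20, 0.083 and 0.060. Translation initiation factors had 1 gene past the threshold of 33 tested, which was HOT3. Histones (47 tested), root markers (19) and mitochondrially encoded genes (22) had 0, with medians of -0.15, 0.079 and 0.057, and 17, 4 and 0 at an unadjusted P under 0.05 in edgeR, again against 25.7%. By DESeq2, of the lists with 0 genes past the threshold in edgeR, salicylic acid defence had 2, DNA damage 1 and RNA interference 1, each higher in hot3-3, and the others had 0. Of the lists with genes past the threshold in edgeR, DESeq2 gave 5 higher among the seed markers, 9 among the flavonoid and anthocyanin genes, 3 among the jasmonate genes and 1 among the phosphate genes, and 4 higher and 5 lower among the class III peroxidases. It gave fewer than edgeR among UGT genes, with 5 higher, and among immune receptor genes, with 1 higher and 0 lower.

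The genes were spread over all chromosomes, with 0.863% of tested genes past the threshold on chromosome 1, 1.35% on chromosome 2, 1.20% on chromosome 3, 1.78% on chromosome 4 and 1.15% on chromosome 5. Within 500 kb of HOT3, 3 of 216 other tested genes passed, or 1.39%, against 1.21% of all. IGMT5, an indole glucosinolate methyltransferase gene, had 78.8 and 84.7 CPM in hot3-3, 39.6, 35.7 and 37.3 CPM in hot3-2, and 43.3 and 43.8 CPM in WT. Its log2 difference was 1.12 (edgeR adjusted P = 0.000167), and it held whichever library was left out. It overlaps AT1G76780 on the other strand. The gene between IGMT5 and HOT3, AT1G76800, had 2.5 and 1.94 CPM in hot3-3 and 3.00 to 3.76 CPM in hot3-2 and did not pass. The others were AT1G75945, described above, and AT1G77520, an O-methyltransferase family gene with 3.18 and 2.86 CPM in hot3-3, 0.731, 0.286 and 0.574 CPM in hot3-2, and 2.03 and 2.65 CPM in WT. AT1G77520 missed 0.01 without hot3-2 replicate 1 (0.0108) or 3 (0.0226) or hot3-3 replicate 2 (0.0112) in edgeR.

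**Figure D5:**
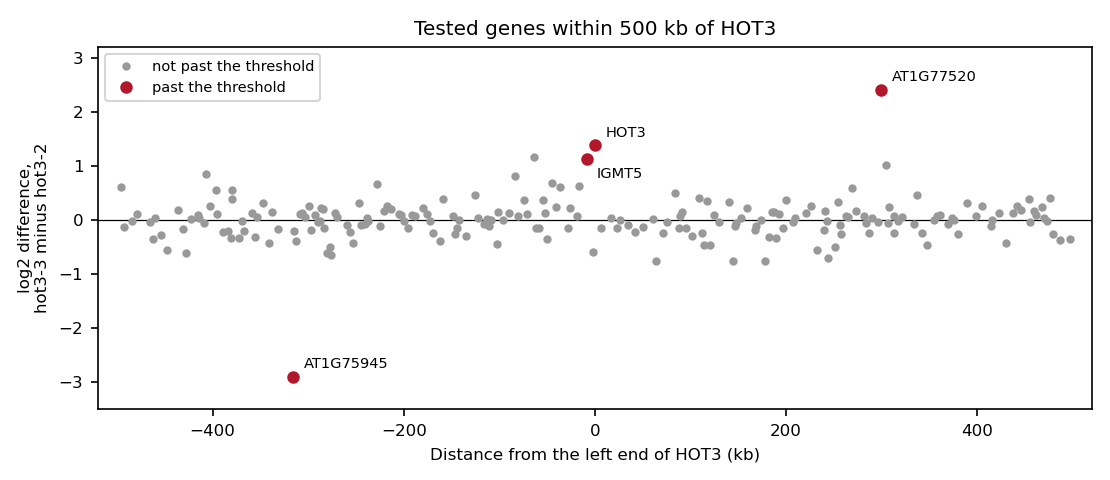
Log2 difference between hot3-3 and hot3-2 (vertical axis) of tested genes within 500 kb of HOT3, by distance in kb from its left end (horizontal axis), red where past the threshold. Besides HOT3 at 1.39, the red points are IGMT5 at 1.12, AT1G75945 at -2.90 and AT1G77520 at 2.41, while most neighbours lie near 0.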

How the data were processed

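Polyadenylated RNA of 18-day-old seedlings was sequenced from a directional kit in 7 libraries. The deposited values are whole-number counts per gene, 1 table per library, with a gene length column that was used only to compare annotations. The authors trimmed reads with cutadapt, aligned them with STAR against TAIR10 and counted unique pairs per gene with featureCounts. The submitters' processing notes give versions 4.2, 2.7.10b and 2.0.3, and the study's methods give other versions of cutadapt and STAR. The strand setting is not given in the sources used here, so overlapping genes can share counts, and near-identical copies can be undercounted. Of 27655 genes, 27445 matched the RefSeq TAIR10.1 annotation by locus, 99.4% with equal exonic length. Names, products, coordinates and promoter windows are from it.

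Genes were filtered with filterByExpr (minimum count 10), which left 20795. All 7 libraries were scaled by TMM and fitted together by genotype in edgeR 4.0.16 (R 4.3.3), without covariates. hot3-3 minus hot3-2 was the contrast of the quasi-likelihood F test, with Benjamini-Hochberg adjustment over all tested genes. The threshold was an adjusted P below 0.01 and a log2 difference of at least 1 in size. SE came from the F statistic. CPM is the count over the TMM-scaled library size, and 3 counts was the floor for a gene at 0, which covers counting error only. Total counts of 14090881 to 34696683 make 3 counts equal to 0.0857 to 0.214 CPM. The correlation between replicates was at least 0.986 across genes, and every pair differed by more than sampling noise. The mean chi-square of a gene was 11.2 for the hot3-3 pair, 18.2 for the WT pair and 2.53 to 7.41 for the hot3-2 pairs. These values also depend on library depth.

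Named genes were the 12 with the largest difference in each direction with no overlap between alleles and a mean of at least 5 CPM in the higher allele, the eIF5B genes, genes called in opposite directions against WT, up to 4 called members per list by P (otherwise the member with the smallest P), and neighbours in runs. Other genes named were chosen after their values were seen. The members, lists and tests were chosen with earlier results of these data known. The procedure was tested on simulated data. Alternatives were another normalization, DESeq2 1.42.0, other filters, the mutant libraries alone, a replicate block, thinned counts, no organelle genes, other thresholds and each library left out. Tables and figures used Python with pandas and matplotlib.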

Additional observations from a re-analysis of the deposited data

Results flagged for a closer look

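The alleles were past the threshold in opposite directions against WT at 6 genes, and the difference between them was itself tested. The log2 difference, hot3-3 minus hot3-2, was -4.34 at AT1G49570 and -4.49 at AT3G05950, which were lower than WT in hot3-3 and higher in hot3-2. It was 2.51 at BGLU7, 3.33 at AT4G22610, 3.61 at CRU3 and 3.45 at CRA1, which were higher than WT in hot3-3 and lower in hot3-2. Of these, CRA1 and CRU3 are seed storage genes whose WT libraries differed from each other by more than 2-fold.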

How the results depend on the processing

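The 251 genes, 178 higher and 73 lower in hot3-3, changed in number with several choices. DESeq2 gave 379 genes, 122 of them lower, and 242 of the 251 were among them. Without a low-count filter there were 407 (279 higher, 128 lower), and with the mutant libraries alone 121 were lower. An adjusted P of 0.05 with no fold limit gave 1937 (1010 higher, 927 lower, so 52.1% higher in place of 70.9%), and a test of the fold limit inside the edgeR model gave 18 (12 higher, 6 lower). In that last test HOT3, with its difference of 1.39, did not pass (adjusted P of 0.334 in edgeR). With 1 library left out, the number was 46 to 371, with 31 to 278 higher and 15 to 127 lower, and the higher share was 57.1% without hot3-2 replicate 2 and 81.0% without hot3-3 replicate 1. The difference of HOT3 was 1.13 to 1.6 over all alternatives, and without hot3-2 replicate 3 it was 1.42 with an adjusted P of 0.0117 in edgeR. Replicate numbers are not stated to mark a shared sowing, and only 2 numbers are shared by the alleles. The deviations of same-numbered libraries correlated at 0.18 and 0.15. With 2 hot3-3 libraries their deviations mirror each other, so exchanging the 2 numbers gives -0.18 and -0.15. The values are thus not separate checks of a pairing. With the replicate number as a block there were 154 genes (96 higher, 58 lower), of which 137 were among the 251. Over the 72 named genes, 962 of the values under alternatives kept their direction and side of the threshold, 181 kept direction only, 6 newly passed and 0 reversed. Leaving out a hot3-2 library ended 18 to 33 calls of named genes. With 2 libraries of hot3-3 and 2 of WT, 1 library weighs heavily on each spread, and genes under 5 CPM in the higher allele (66 of the 251) rest on few reads.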
